A study of Mus musculus with 18 samples.

Results

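Trp53 and 6 genes that feed back on its product were followed over Trp53 dosage in mouse embryo fibroblasts (MEFs) with and without Pole4. The members are Trp53, Mdm2, Mdm4, Rchy1, Ppm1d, Ccng1 and Trp53inp1. They were taken by gene symbol, and each symbol matched 1 Ensembl identifier, so they make up 7 of the 51912 genes in the table.

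TRP53 is a transcription factor that is made continuously and kept scarce by degradation. Several of its own targets act back on it: MDM2 and RCHY1 (PIRH2) are ubiquitin ligases that mark it for the proteasome, PPM1D (WIP1) is a phosphatase that removes damage-induced phosphates, and cyclin G1, the product of Ccng1, recruits a phosphatase to MDM2. MDM4 (MDMX) binds MDM2 and masks the activation domain of TRP53, while TRP53INP1 works the other way, as a stress-induced cofactor that promotes phosphorylation of TRP53.

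The study asked how loss of Trp53 changes the transcriptome of cells with and without POLE4, a small subunit of DNA polymerase epsilon. Primary MEFs at passage 1 were grown in 15% serum and 5% oxygen, with no damaging agent. Embryos came from intercrosses of mice heterozygous for both genes on C57BL/6, carrying the Pole4 tm1(KOMP)Vlcg and Trp53 tm1Brd alleles. Each Pole4 genotype, +/+ or -/-, was combined with Trp53+/+ (wild-type), Trp53+/- (heterozygous) or Trp53-/- (null), and RNA of these 6 genotypes was sequenced in 3 libraries each. In what follows, wild-type, heterozygous and null refer to Trp53. Both alleles were carried in the germ line, so every cell of an embryo had the same genotype. The labels do not say whether the libraries of a genotype came from separate embryos, and p-values measure only the spread between these libraries.

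Libraries held from 9535971 to 35319918 counts, with a median of 22781544. The share of these that fell on ribosomal RNA genes was 5.81% to 11.2% in wild-type, 0.968% to 26.8% in heterozygous and 1.82% to 13.1% in null Pole4+/+ libraries. In the Pole4-/- libraries it was 7.11% to 42.5%, 3.75% to 15.5% and 24.7% to 30.0%, in the same order. The falls of Trp53, Mdm2 and Ccng1 in null against wild-type cells were also called where libraries were scaled by their totals without these genes. Calls that this scaling changed are given with the results. All 9 fibroblast markers stood at or above 1.086 CPM (counts relative to library size) in every library, and none of the 6 erythroid markers passed 1.213 CPM. Of 6 skeletal muscle markers, Des and Acta1 carried most of the signal while Myod1, Myog and Myf5 did not pass 1.45 CPM. Their summed level moved with Trp53, running from 114 to 151 CPM in wild-type, 58.5 to 80.6 CPM in heterozygous and 43.1 to 50.7 CPM in null Pole4+/+ cells. The matching ranges in Pole4-/- cells were 140.3 to 149.8, 125 to 203 and 55.0 to 67.6 CPM. The summed fibroblast markers were lower in null (9862 to 12300 CPM) than in wild-type (16330 to 20350 CPM) Pole4-/- cells, and higher in heterozygous (15510 to 20170 CPM) than in wild-type (11760 to 15420 CPM) Pole4+/+ cells. The 5 neural markers summed to 67.2 to 82.1 CPM in wild-type, 75.7 to 116.5 CPM in heterozygous and 111.5 to 132.5 CPM in null Pole4-/- cells. Pole4+/+ sums were 58.9 to 76.9 CPM, 84.3 to 114.2 CPM and 75.1 to 123.7 CPM, in the same order. Tubb3 and Stmn2 carried most of this signal, while Sox10, Elavl3 and Dcx did not pass 2.142 CPM. The 5 epithelial markers summed to 2.02 to 2.67 CPM in wild-type, 3.90 to 6.47 CPM in heterozygous and 4.40 to 20.2 CPM in null Pole4-/- cells, while Epcam, Cdh1 and Krt14 did not pass 0.454 CPM in any library. The part of these levels in the results was not tested. In RNA from whole cultures, fewer cells of a type and less RNA per cell cannot be told apart. By Xist and Y-linked genes, 7 libraries were male and 11 female. All wild-type and null Pole4+/+ libraries were female, all heterozygous Pole4+/+ libraries were male, and the Pole4-/- genotypes held both sexes. The first null Pole4+/+ library was female by Xist but held 9.08 CPM of Y-linked RNA, against at most 0.337 CPM in the other female libraries.

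Levels are CPM scaled by the trimmed mean of M-values (TMM). A gene is called where its adjusted p in edgeR's quasi-likelihood test over 15710 genes is under 0.05. All 7 members passed the filter on low counts. Values listed for a genotype are in the order of library 1, 2 and 3.

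**Figure D1:**
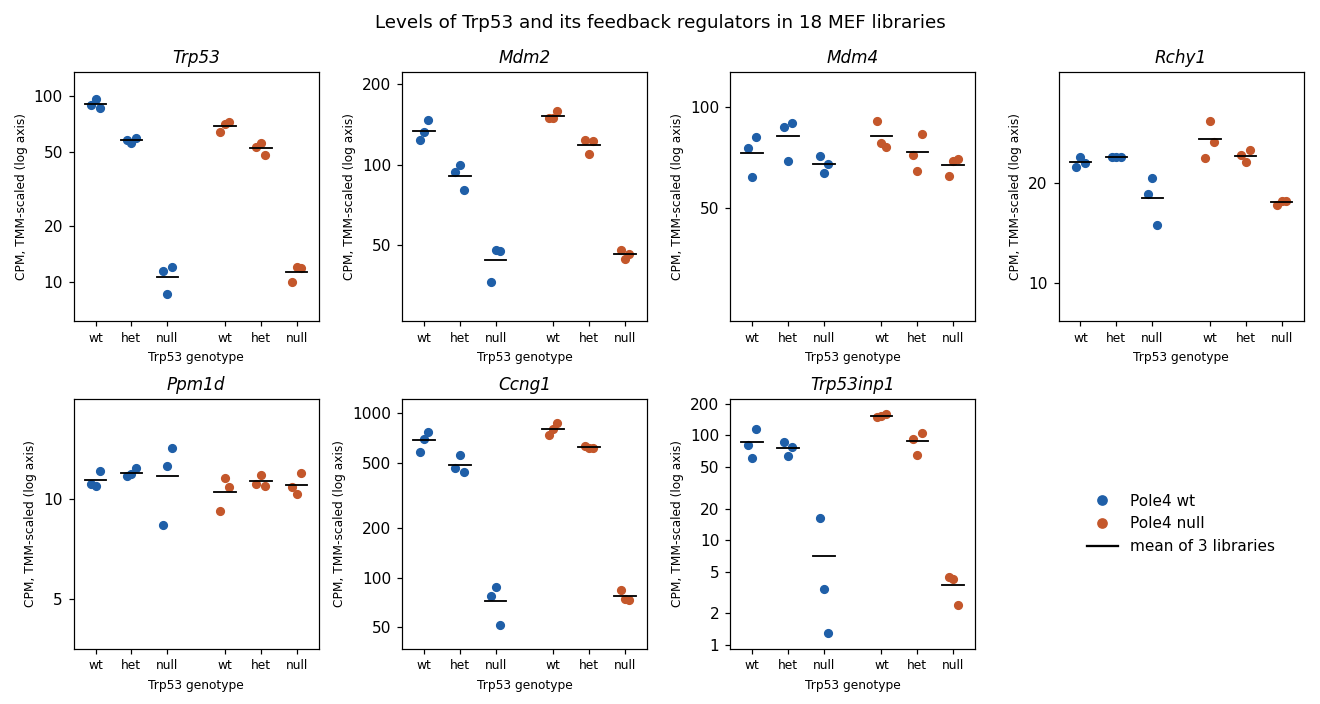
TMM-scaled CPM of the 7 members on log axes, 1 point per library and a bar at the mean of 3, over Trp53 wt, het and null in Pole4 wt (blue) and Pole4 null (orange) cells. Trp53, Mdm2, Ccng1 and Trp53inp1 step down to the null genotype in both backgrounds, while Mdm4 lies between 61.7 and 91.3 CPM and Ppm1d between 8.34 and 14.2 CPM in all 18 libraries.

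Trp53 itself (ENSMUSG00000059552, chromosome 11, positions 69580359 to 69591873 of GRCm38, plus strand) was read first, as the check of the Trp53 part of the genotype labels. In Pole4+/+ cells its level was 89.7, 96.1 and 86.6 CPM in wild-type, 58.4, 56.2 and 59.6 CPM in heterozygous and 11.5, 8.65 and 12.05 CPM in null libraries. The Pole4-/- values were 64.2, 70.5 and 72.7 CPM, then 53.2, 55.6 and 48.4 CPM, then 10.03, 12.1 and 11.9 CPM. Every library therefore stood where the Trp53 part of its label put it, and no genotypes of 1 background overlapped. The null level was not 0: it was 11.8% ± 2.02 of the wild-type mean in Pole4+/+ and 16.4% ± 1.66 in Pole4-/- cells (SD, n = 3). The tm1Brd allele disrupts an internal part of the gene, and counts per gene do not tell which exons the remaining reads came from. The Trp53 pseudogene held 0 counts in all libraries.

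Trp53 lies head to head with Wrap53, whose RNA starts on the opposite strand, and the stretch between the annotated starts is only 103 bases. It is shown as the whole stretch that parts both genes. The annotated genes do not overlap, and Trp53 had a fractional count in 0 libraries.
Trp53/Wrap53, chr11:69580256-69580358, plus strand, GRCm38.p6 (RefSeq): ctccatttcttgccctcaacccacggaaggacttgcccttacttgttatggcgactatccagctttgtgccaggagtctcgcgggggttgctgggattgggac
Wrap53, which encodes a telomerase and Cajal body protein, stood at 4.79, 5.84 and 6.29 CPM in wild-type and at 7.67, 7.96 and 8.55 CPM in null Pole4-/- cells, so all null libraries were above all wild-type ones. Libraries of these groups did not overlap, in either direction, for 57.0% of all genes. It was higher in the null cells by 0.53 on the log2 scale (SE 0.18, edgeR adjusted p = 0.0285). The Pole4+/+ difference was 0.34 (adjusted p = 0.318), and there the libraries overlapped. Among 16 neighbours of Trp53, 13 were tested, and 3 rose and 5 fell in Pole4-/- while 1 fell in Pole4+/+ null cells, beside 42.6% and 4.6% of all genes called there. The gene called in both was Tmem88, which encodes a membrane protein of Wnt signalling, with log2 fold changes of -1.18 and -1.15.

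Mdm2, the main ligase of TRP53 (ENSMUSG00000020184, chromosome 10, positions 117688875 to 117710758), followed the dosage of Trp53. In Pole4+/+ cells its level was 123.5, 132 and 147 CPM with both alleles, 93.7, 99.6 and 80.3 CPM with 1 allele and 36.3, 47.8 and 47.5 CPM with none. With Pole4 absent the values were 149.5, 149.9 and 159 CPM, then 124, 109 and 123 CPM, then 48.1, 44.5 and 46.3 CPM. The 3 genotypes did not overlap in either background. Null cells kept 32.7% ± 4.87 of the wild-type mean in Pole4+/+ and 30.3% ± 1.19 in Pole4-/- cells (SD, n = 3). The null levels of both backgrounds differed by 0.08 on the log2 scale (95% interval -0.15 to 0.31). Fractional counts occurred in 7 libraries, so some Mdm2 reads were divided with another gene.

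Mdm4 (ENSMUSG00000054387, chromosome 1, positions 132959484 to 133030561), the partner of MDM2, varied less than Mdm2. Its Pole4+/+ level was 75.6, 61.7 and 81.8 CPM in wild-type, 87.2, 69.0 and 89.6 CPM in heterozygous and 71.7, 63.7 and 67.7 CPM in null libraries, and these overlapped. Libraries of Pole4-/- cells gave 91.3, 78.2 and 76.3 CPM, then 72.1, 64.6 and 83.1 CPM, then 62.1, 68.8 and 70.3 CPM, where null and wild-type did not overlap, as was the case for 57.0% of all genes. The log2 differences of null from wild-type were -0.11 (95% interval -0.37 to 0.16) and -0.29 (-0.56 to -0.02), and neither was called (edgeR adjusted p = 0.714 and 0.0743). In Pole4-/- cells its means fell in the order of Trp53 dose, as those of Mdm2 did, and the null difference was called in 4 of 8 alternative fits (adjusted p from 0.0233 to 0.0368). Those fits called from 42.8% to 51.7% of all genes. A fall of Mdm4 as large as that of Mdm2 lies outside both intervals.

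The ratio of Mdm2 to Mdm4 counts within a library needs no scaling and shows the pair directly. Its log2 value in Pole4+/+ cells was 0.71, 1.10 and 0.85 in wild-type, 0.10, 0.53 and -0.16 in heterozygous and -0.98, -0.41 and -0.51 in null libraries. The Pole4-/- values were 0.71, 0.94 and 1.06, then 0.78, 0.76 and 0.56, then -0.37, -0.63 and -0.60. Counts of Mdm2 thus exceeded those of Mdm4 in all 6 wild-type libraries and were below them in all 6 null libraries. The means were 0.89 ± 0.20, 0.16 ± 0.35 and -0.63 ± 0.30 in Pole4+/+ and 0.90 ± 0.18, 0.70 ± 0.12 and -0.53 ± 0.14 in Pole4-/- cells (SD, n = 3). Over both backgrounds the difference of null from wild-type cells was -1.48 (exact two-sided permutation test within backgrounds, p = 0.005, the smallest the design allows). The difference of heterozygous from wild-type was -0.47 (exact p = 0.015) and that of null from heterozygous was -1.01 (exact p = 0.005). Adjusted by Benjamini-Hochberg over these 3 comparisons, the exact p-values were 0.0075, 0.015 and 0.0075. Within a background the exact test cannot go below p = 0.1. The heterozygous difference was -0.73 in Pole4+/+ (exact p = 0.1) and -0.20 in Pole4-/- cells (exact p = 0.3, libraries overlapping). All heterozygous Pole4+/+ libraries were male and all wild-type ones female, so there this test cannot tell sex from Trp53 dose. Fractional counts occurred in 7 libraries for Mdm2 and in 4 for Mdm4. Per kilobase of exon, which allows for the longer exons of Mdm4, Mdm2 and Mdm4 stood at 26.4 and 4.94 CPM per kb in wild-type and at 8.64 and 4.57 CPM per kb in null Pole4+/+ cells.

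**Figure D2:**
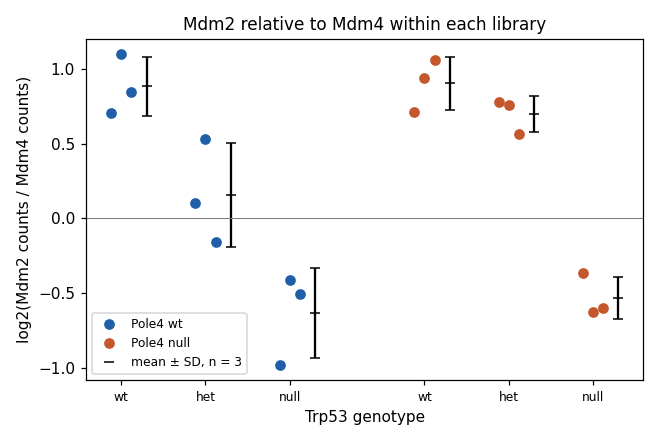
Log2 ratio of Mdm2 to Mdm4 counts within each of the 18 libraries, with the mean ± SD of 3 libraries beside the points, by Trp53 genotype in Pole4 wt (blue) and Pole4 null (orange) cells. All wild-type libraries lie above 0 and all null libraries below it, and the heterozygous means are 0.16 and 0.70.

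Rchy1, the other ligase among the members (ENSMUSG00000029397, chromosome 5, positions 91948904 to 91963068), moved less. Its Pole4+/+ level was 22.3, 23.8 and 23.0 CPM in wild-type, 23.8, 23.96 and 23.9 CPM in heterozygous and 18.5, 20.6 and 14.96 CPM in null libraries. With Pole4 absent the values were 23.8, 30.7 and 26.5 CPM, then 24.3, 23.1 and 24.99 CPM, then 17.2, 17.6 and 17.6 CPM. Null libraries were below all others in both backgrounds. Rchy1 fell in Pole4-/- null cells, by 0.63 on the log2 scale (SE 0.11, edgeR adjusted p = 0.000392), and its value in Pole4+/+ null cells was -0.35 (adjusted p = 0.0754). The latter was called by DESeq2 (-0.34, adjusted p = 0.0398) and by edgeR without the first or the second null library (adjusted p = 0.0324 and 0.0392). The difference between these effects was -0.28 (95% interval -0.60 to 0.05) and was not called (adjusted p = 0.242), so the backgrounds were not shown to differ. That difference was called without the third null Pole4+/+ library, in a fit that called 20.9% of all genes. Rchy1 shares 680 exon bases with Thap6 on the opposite strand, and its values are uncertain to that extent.

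Ppm1d (ENSMUSG00000020525, chromosome 11, positions 85311244 to 85347066) was not called in any comparison. Its Pole4+/+ level was 11.1, 10.96 and 12.2 CPM in wild-type, 11.7, 11.8 and 12.4 CPM in heterozygous and 8.34, 12.5 and 14.2 CPM in null libraries. Libraries of Pole4-/- cells gave 9.21, 11.5 and 10.8 CPM, then 11.1, 11.8 and 10.9 CPM, then 10.8, 10.3 and 11.9 CPM. Within each background the 3 genotypes overlapped. The log2 differences of null from wild-type were 0.03 (95% interval -0.29 to 0.35) and 0.07 (-0.26 to 0.40) in Pole4+/+ and Pole4-/- cells, so changes of that size in either direction were not detectable. Ppm1d was also the scarcest member per kilobase of exon in wild-type cells, at 3.59 ± 0.21 CPM per kb in the Pole4+/+ libraries.

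Ccng1 (ENSMUSG00000020326, chromosome 11, positions 40748552 to 40755311) was the most abundant member. Its Pole4+/+ level was 582, 693 and 771 CPM in wild-type, 465, 557 and 436 CPM in heterozygous and 77.4, 88.4 and 52.0 CPM in null libraries. The Pole4-/- values were 731, 795 and 867 CPM, then 631, 615 and 617 CPM, then 84.0, 74.9 and 73.3 CPM. No genotypes of 1 background overlapped. Null cells kept 10.6% ± 2.74 of the wild-type mean in Pole4+/+ and 9.70% ± 0.721 in Pole4-/- cells (SD, n = 3). Per kilobase of exon, Ccng1 held 194 CPM per kb in wild-type and 20.7 CPM per kb in null Pole4+/+ cells, beside 22.4 CPM per kb of Trp53 in the wild-type ones.

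The promoters of Ccng1 and Ppm1d are shown because the one gene fell in both backgrounds and the other was not called. Windows from 250 bases before to 50 after the RefSeq start were held for 6 of the 7 members, all but Trp53inp1. Each was searched on both strands for the p53 consensus, a pair of 10-base half-sites with no spacer. The window of Ccng1 held a match at 19 of 20 positions, marked in capitals. Windows of 0.107% of 27025 genes hold a match with at most 1 mismatch.
Ccng1, chr11:40755312-40755536, minus strand, GRCm38.p6 (RefSeq): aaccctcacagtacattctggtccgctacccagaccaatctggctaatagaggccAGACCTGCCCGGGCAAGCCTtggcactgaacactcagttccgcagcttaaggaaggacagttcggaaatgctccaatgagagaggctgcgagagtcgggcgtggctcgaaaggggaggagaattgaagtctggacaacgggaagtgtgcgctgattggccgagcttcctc
Ppm1d, chr11:85311123-85311222, plus strand, GRCm38.p6 (RefSeq): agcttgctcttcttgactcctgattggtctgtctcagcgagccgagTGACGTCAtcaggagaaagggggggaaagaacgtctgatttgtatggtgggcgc
The capitals in the Ppm1d stretch mark TGACGTCA, the cyclic AMP response element, which reads the same on both strands and occurs in 1.79% of the windows. The best match to the p53 consensus in the window of Ppm1d was at 16 of 20 positions, and 33.2% of genes match as well or better. It was 17 of 20 for Trp53 and Mdm4, a level that 7.20% of genes reach, and 15 of 20 for Mdm2 and Rchy1, which 79.2% reach. Stretches outside the windows, introns included, were not searched, and a match of letters is a description of the stretch and not of binding.

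Trp53inp1 (ENSMUSG00000028211, chromosome 4, positions 11156431 to 11174379) had the widest range, 122-fold between its lowest and highest library. Its Pole4+/+ level was 80.7, 61.2 and 115.4 CPM in wild-type, 85.7, 63.0 and 76.5 CPM in heterozygous and 16.3, 3.45 and 1.29 CPM in null libraries. With Pole4 absent the values were 149.2, 152 and 158 CPM, then 92.5, 64.5 and 105 CPM, then 4.45, 4.29 and 2.39 CPM. The first null Pole4+/+ library, the one with Y-linked RNA, was the highest null library, and wild-type and heterozygous libraries overlapped in Pole4+/+ but not in Pole4-/- cells. Null cells kept 2.43% ± 0.75 of the wild-type mean in Pole4-/- and 8.19% ± 9.47 in Pole4+/+ cells (SD, n = 3).

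Between null and wild-type cells, 5 members fell in the Pole4-/- and 4 in the Pole4+/+ background, and none rose. Counts of members over Trp53 dose, here and below, include Trp53, the gene that the genotypes disrupt, whose own fall follows from the design. Among all genes tested, 42.6% were called in Pole4-/- cells (20.8% lower and 21.8% higher) and 4.6% in Pole4+/+ cells (2.37% lower and 2.23% higher), a share that was 17.3% without the first null Pole4+/+ library. The libraries of the groups did not overlap for 6 members in Pole4-/- and 5 in Pole4+/+ cells, beside 57.0% and 16.5% of all genes. The log2 fold changes in Pole4-/- and Pole4+/+ cells were -2.61 and -3.08 for Trp53, -1.72 and -1.62 for Mdm2, -3.36 and -3.23 for Ccng1 and -5.34 and -3.51 for Trp53inp1, with edgeR adjusted p of at most 0.00362. Rchy1 made the fifth in Pole4-/- cells. The median over the 7 members was -1.72 and -1.62, beside -0.02 and 0.03 over all genes tested. For Trp53inp1 in Pole4+/+ cells the value depended on 1 library: without the first null Pole4+/+ library it was -5.08 (adjusted p = 1.42e-05). In a fit of only the 6 libraries compared it was no longer called (-3.53, adjusted p = 0.165).

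**Figure D3:**
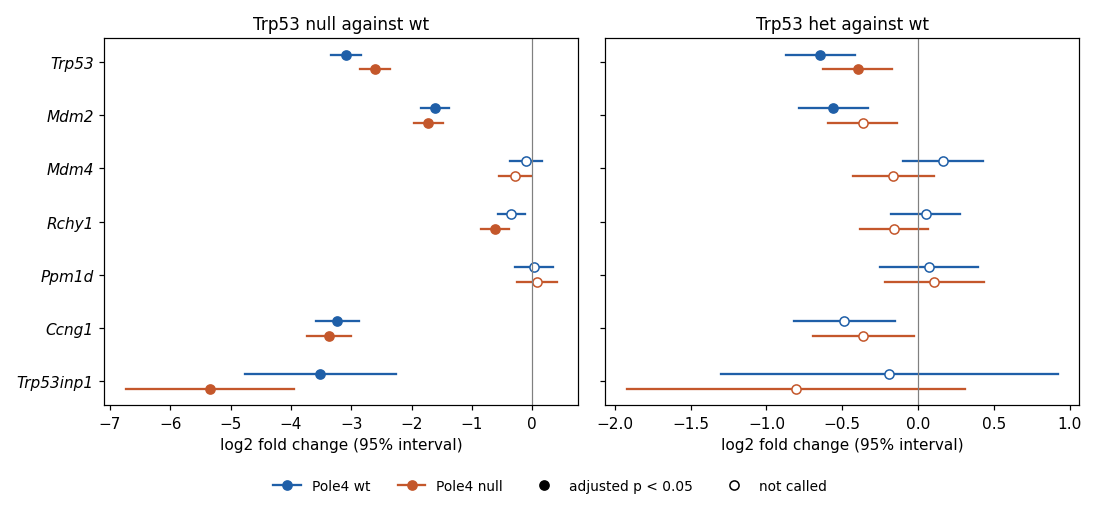
Log2 fold changes with 95% intervals for the 7 members, Trp53 null (left) and Trp53 het (right) against wt, in Pole4 wt (blue) and Pole4 null (orange) cells. Filled points are called by edgeR. On the left Trp53, Mdm2, Ccng1 and Trp53inp1 are filled in both backgrounds and Rchy1 in Pole4 null cells, and on the right Trp53 is filled in both and Mdm2 in Pole4 wt cells. The axes differ in range.

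Loss of a single allele moved fewer members, and in Pole4-/- cells edgeR called none besides Trp53. Among Pole4+/+ cells Trp53 fell by 0.65 (SE 0.11, edgeR adjusted p = 0.0108) and Mdm2 by 0.56 (SE 0.11, adjusted p = 0.0227) on the log2 scale, 2 members where 0.904% of all genes were called and 0.407% were lower. Among Pole4-/- cells Trp53 fell by 0.40 (SE 0.11, adjusted p = 0.0461), 1 member where 5.12% of all genes were called and 2.16% were lower (0.108% to 3.56% called without 1 library). The values of Mdm2 and Ccng1 there were -0.36 each (adjusted p = 0.0585 and 0.163), and the former was called in 5 of 8 alternative fits (adjusted p from 0.00617 to 0.0329) and the latter in 1, with only the libraries compared (adjusted p = 0.0276). Trp53inp1 was at -0.81 there (SE 0.52, adjusted p = 0.342), with the libraries apart, and was called with voom (adjusted p = 0.00831) and with only the libraries compared (adjusted p = 0.0217), fits that called 24.6% and 18.2% of all genes. The value of Ccng1 in Pole4+/+ cells was -0.49 (adjusted p = 0.198). The libraries did not overlap for 3 members in Pole4+/+ and 4 in Pole4-/- cells, beside 20.3% and 40.3% of all genes.

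Several single-allele calls rested on single libraries or settings. The call of Trp53 in Pole4-/- cells was lost when any 1 of its 6 libraries was left out (adjusted p from 0.0744 to 0.157), with a term for sex (adjusted p = 0.101), with the replicate number as a block (adjusted p = 0.0509), with scaling by library totals without ribosomal RNA genes (adjusted p = 0.0553), where Mdm2 was the 1 member called, and without a filter on low counts (adjusted p = 0.119). Over the 8 alternative fits of all libraries or of those compared, its log2 fold change lay between -0.33 and -0.44. All heterozygous Pole4+/+ libraries were male and all wild-type ones female. With a term for sex, which rests on the other genotypes, Trp53 stayed called in Pole4+/+ cells (-0.75, adjusted p = 0.0248) and Mdm2 did not (-0.58, adjusted p = 0.0935). The call of Trp53 there was lost without the second wild-type library (-0.60, adjusted p = 0.0662) or the first heterozygous library (-0.64, adjusted p = 0.0773). The call of Mdm2 there was lost without the second or the third wild-type library, or without the first or the third heterozygous library (adjusted p from 0.0794 to 0.0980).

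Averaged over both backgrounds, 3 members fell with a single lost allele, where 6.68% of all genes were called and 3.15% were lower (3.21% to 6.48% called without 1 library). Trp53 fell by 0.52 (SE 0.08, edgeR adjusted p = 0.00142), Mdm2 by 0.46 (SE 0.08, adjusted p = 0.00252) and Ccng1 by 0.42 (SE 0.11, adjusted p = 0.0312) on the log2 scale. The calls of Trp53 and Mdm2 held in all 12 fits without 1 library. That of Ccng1 held in 3 of them, those without the first wild-type or second heterozygous Pole4+/+ library or the first wild-type Pole4-/- library, and in the other 9 its value lay between -0.38 and -0.43 (adjusted p up to 0.0877). Trp53inp1 was at -0.50 with an SE of 0.37 (adjusted p = 0.454), and was called by voom (-0.43, adjusted p = 0.0319), beside 20.8% of all genes. Mdm4 was at 0.0016 (95% interval -0.19 to 0.19) and Ppm1d at 0.09 (-0.14 to 0.32).

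Where the heterozygous level lay between null and wild type was read on the linear CPM scale, with 0% at the mean of the null and 100% at the mean of the wild-type libraries of the same background. It was computed for members called in the null comparison and has no test. Trp53 lay at 59.1% ± 2.12 in Pole4+/+ and 71.0% ± 6.35 in Pole4-/- cells. Mdm2 lay at 52.3% ± 10.9 and 67.9% ± 7.55, and Ccng1 at 67.9% ± 10.4 and 75.4% ± 1.21 (SD, n = 3). Trp53inp1 lay at 86.4% ± 14.5 in Pole4+/+ and 56.1% ± 13.97 in Pole4-/- cells, and Rchy1 at 69.985% ± 9.79 in Pole4-/- cells. All these means were above the midpoint with all libraries, but Mdm2 in Pole4+/+ cells was at 49.3% without the first wild-type and at 47.6% without the second heterozygous library. Single heterozygous libraries were below it for Mdm2 in Pole4+/+ cells, at 40.2%, and for Trp53inp1 in Pole4-/- cells, at 40.7%.

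**Figure D4:**
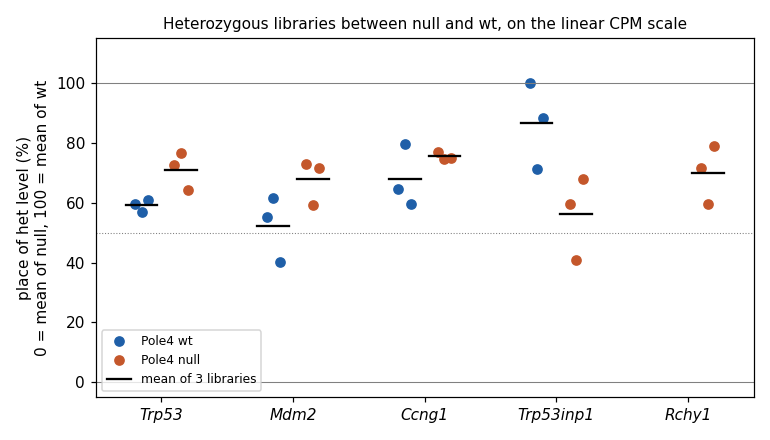
Place of each Trp53 heterozygous library between the null mean (0%) and the wild-type mean (100%) on the linear CPM scale, for members called in the null comparison of that background, with bars at the mean of 3 libraries (blue, Pole4 wt; orange, Pole4 null). The means run from 52.3% to 86.4%, and the dotted line marks the midpoint.

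The second allele was compared with the first in each background, as the log2 step from heterozygous to null minus the step from wild-type to heterozygous. On this scale a gene that falls to near 0 takes a larger second step even where its level is linear in gene copies. Among Pole4-/- cells the second step was larger for Trp53 (-1.81, SE 0.18, edgeR adjusted p = 8.95e-05), Ccng1 (-2.64, SE 0.26, adjusted p = 8.95e-05) and Mdm2 (-0.99, SE 0.18, adjusted p = 0.0383), 3 members where 0.165% of all genes were called and 0.146% were lower. Among Pole4+/+ cells it was larger for Trp53 (-1.79, SE 0.18, adjusted p = 0.000144) and Ccng1 (-2.25, SE 0.26, adjusted p = 0.000595), 2 members where 0.299% were called and 0.248% were lower (1.05% called without the first null and 0.0955% without the first heterozygous library), while Mdm2 was at -0.50 (adjusted p = 0.548). Trp53inp1 had larger values with wider errors, -3.73 (SE 0.90, adjusted p = 0.164) in Pole4-/- and -3.13 (SE 0.88, adjusted p = 0.286) in Pole4+/+ cells. In Pole4-/- cells it was called by DESeq2 (adjusted p = 0.0382), by voom (0.00118) and with only the libraries compared (0.00241). In Pole4+/+ cells it was called by voom (adjusted p = 0.000947) and by edgeR without the first null library (-4.68, adjusted p = 0.00149). The call of Ccng1 in Pole4+/+ cells held in 6 of 8 alternative fits and was lost with only the libraries compared (adjusted p = 0.0563) and with a sex term (adjusted p = 0.0579). The call of Mdm2 in Pole4-/- cells held in 1 of 9 fits without 1 library, that without the first wild-type library, and was lost in the others (adjusted p from 0.0585 to 0.188). It was also lost with the replicate block (adjusted p = 0.0527) and with a sex term (adjusted p = 0.0567).

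The step from heterozygous to null taken alone was called for the same members as the full loss. There were 5 in Pole4-/- cells, where 12.5% of genes were called and 5.91% were lower (4.3% to 11.9% called without 1 library), and 4 in Pole4+/+ cells, where 0.579% were called and 0.509% were lower (9.62% called without the first null Pole4+/+ library). For Trp53inp1 in Pole4+/+ cells the step was -3.32 (edgeR adjusted p = 0.015). This call was lost without the first heterozygous library (adjusted p = 0.0522), without the second null library (adjusted p = 0.0604), without a filter on low counts (adjusted p = 0.0570), with a term for sex (adjusted p = 0.243) and with only the libraries compared (adjusted p = 0.542). The call of Mdm2 there (-1.06, adjusted p = 4.78e-05) was lost in that last fit as well (-1.05, adjusted p = 0.0821), and Rchy1 there was called without the first null library (-0.44, adjusted p = 0.0339).

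Pole4 genotype was compared at each Trp53 dose, so each library of the dose comparisons was used again. In wild-type cells edgeR called 0 of the 7 members, where 3.98% of all genes were called (0.0509% to 4.07% without 1 library), and 1 member had an unadjusted p under 0.05. That member was Trp53, at -0.39 in Pole4-/- cells (SE 0.11, adjusted p = 0.0518), with all 3 Pole4-/- libraries below all 3 Pole4+/+ libraries. Mdm2 and Trp53inp1 had the opposite sign, at 0.19 (95% interval -0.04 to 0.41) and 0.83 (-0.28 to 1.95), and did not overlap either, as was the case for 41.1% of all genes. DESeq2 called 1 member, Trp53 (adjusted p = 0.00711), where it called 10.3% of all genes. Limma's voom with quality weights called 33.3% of all genes and 4 members: Trp53 (-0.39, adjusted p = 0.000714), Mdm2 (0.24, adjusted p = 0.0195), Trp53inp1 (0.92, adjusted p = 0.00111) and Rchy1 (0.24, adjusted p = 0.0372). With a term for sex Trp53 was at -0.47 (adjusted p = 0.139), and with library totals without ribosomal RNA genes it was called (-0.42, adjusted p = 0.0399), as it was without a filter on low counts (adjusted p = 0.0276) and with only the libraries compared (adjusted p = 0.00836).

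At the other doses edgeR called 0 members as well, where 0.00637% of all genes were called in each. In heterozygous cells, 2 members had an unadjusted p under 0.05, Mdm2 at 0.38 (95% interval 0.15 to 0.61) and Ccng1 at 0.35 (0.02 to 0.69). The libraries did not overlap for 3 members, beside 13.1% of all genes. DESeq2 called 0 members and voom called Mdm2 (adjusted p = 0.0298), beside 0.274% and 1.57% of all genes. In null cells 0 members had an unadjusted p under 0.05 by edgeR, DESeq2 and voom called 0, and the libraries overlapped for all 7, while those of 9.15% of all genes did not. Averaged over the 3 doses edgeR called 0 members, where 0.439% of genes were called (7.23% without the first null and 0.0573% without the first heterozygous Pole4+/+ library), 3 had an unadjusted p under 0.05, and Mdm2 was at 0.22 (95% interval 0.08 to 0.35, adjusted p = 0.149). DESeq2 and voom each called Mdm2 there (adjusted p = 0.0383 and 0.0126), beside 2.44% and 13.6% of all genes, and edgeR called it without the first null Pole4+/+ library (0.18, adjusted p = 0.0441).

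A further test asked if the Pole4 background altered the effect of Trp53 loss, as an interaction term. For null against wild-type edgeR called 0 of the 7, where 0.331% of all genes were called, and 2 had an unadjusted p under 0.05. Trp53 was at 0.48 (95% interval 0.14 to 0.81, adjusted p = 0.0838), a smaller fall in Pole4-/- cells, and Trp53inp1 at -1.83 (-3.54 to -0.12, adjusted p = 0.153), a larger one. DESeq2 and voom each called Trp53 (adjusted p = 0.0394 and 0.0249), beside 11.4% and 7.85% of all genes. If the first null Pole4+/+ library was left out, Trp53inp1 was at -0.28 (adjusted p = 0.837). If the third was left out, Trp53inp1 was at -2.26 (adjusted p = 0.0298), Trp53 at 0.55 (adjusted p = 0.0318) and Rchy1 at -0.39 (adjusted p = 0.0429), all called. That last fit also called 20.9% of all genes. Mdm2 was at -0.11 (-0.43 to 0.22). For heterozygous against wild-type edgeR, DESeq2 and voom called 0 members, 0 had an unadjusted p under 0.05 by edgeR, and the shares of all genes called were 0.0%, 0.185% and 6.51%.

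The order of the mean levels over the 6 genotypes differed among members. For Trp53 it fell from 90.8 CPM in wild-type Pole4+/+ to 69.1 CPM in wild-type Pole4-/- cells, then to 58.1 CPM in heterozygous Pole4+/+ and 52.4 CPM in heterozygous Pole4-/- cells. The null means were last, and among neighbours in this order only the null genotypes overlapped. For Mdm2, Ccng1, Trp53inp1 and Rchy1 the highest mean was that of wild-type Pole4-/- cells, at 152.9, 798, 152.9 and 27.0 CPM. Those libraries did not overlap with the next genotype for Mdm2 (wild-type Pole4+/+) and Trp53inp1 (heterozygous Pole4-/-). Neither difference was called (edgeR adjusted p = 0.279 and 0.342), and 41.1% and 40.3% of all genes did not overlap there. Neighbouring genotypes of Mdm4 and of Ppm1d overlapped throughout.

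The genes whose pattern over the 18 libraries lay closest to a member were found by the root mean square difference in log2 CPM, after centring each gene. For Trp53 they were Zmat3 (0.40), 9230114K14Rik (0.42) and Ccng1 (0.42), beside a spread of 1.25 of Trp53 itself. For Mdm2 they were Tnfrsf10b (0.17), Polk (0.17) and Rnf169 (0.20), beside 0.72. For Ccng1 they were Psrc1 (0.34), Ak1 (0.36) and Trp53 (0.42), beside 1.49. For Trp53inp1 they were Dglucy (0.46), Ephx1 (0.56) and Cdkn1a (0.57), beside 2.28. For Ppm1d they were Spindoc (0.10), Dusp12 (0.10) and 2310022A10Rik (0.11), beside only 0.16, so these are genes that varied as little as Ppm1d did.

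Other genes of the circuit were read from lists that hold none of the members. Of 38 TRP53 targets of other roles, 28 fell and 1 rose in null against wild-type Pole4-/- cells, and 22 fell and 0 rose in Pole4+/+ cells, with median log2 fold changes of -1.36 and -0.94. The 4 called in both with the lowest p were Zmat3, an RNA-binding zinc finger protein (-2.18 and -1.96), Eda2r, a receptor of the TNF family (-6.90 and -6.10), Cdkn1a, the CDK inhibitor p21 (-5.72 and -4.59), and Polk, a translesion polymerase (-1.57 and -1.30). Of 25 other ligases, deubiquitinases and stability factors of TRP53, 10 rose and 3 fell in Pole4-/- cells, with a median of 0.19. For Pole4+/+ cells edgeR called 0 of them, 3 had an unadjusted p under 0.05, DESeq2 called 0 and voom 4, and the median was 0.04. Of 26 kinases and other enzymes that modify TRP53, 16 rose and 1 fell in Pole4-/- cells, with a median of 0.29. For Pole4+/+ cells edgeR called 0 of these, 4 had an unadjusted p under 0.05, DESeq2 called 2 and voom 5, and the median was 0.07. The counts in Pole4-/- cells stand beside 42.6% of all genes called there, and those in Pole4+/+ cells beside 4.6% by edgeR, 8.35% by DESeq2 and 18.8% by voom.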

How the data were processed

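RNA from 18 MEF libraries, 3 for each of 6 genotypes, had been sequenced as paired-end reads after amplification with the Ovation RNA-Seq kit. Trim Galore for adapters, STAR 2.5.2 for alignment to GRCm38 and RSEM 1.3.0 for quantification had been used by the authors. The deposited values are expected counts per gene, which share out reads that match several genes, and 6.14% of them lie over 0.005 from a whole number, the tolerance for each count of fractional values. Whether counting used strand is not given in the sources used here. The labels name TRIzol for RNA extraction and the study's methods a column kit.

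Expected counts were rounded and fitted in R 4.3.3 with edgeR 4.0.16: filterByExpr (15710 genes kept), scaling by TMM, a mean for each genotype fitted to the 18 libraries together with 12 residual degrees of freedom, robust quasi-likelihood F-tests and Benjamini-Hochberg adjustment over all genes, called under 0.05. Intervals are at the 95% level. Log2 CPM used a prior count of 2. Ratios of Mdm2 to Mdm4 were compared with exact two-sided permutation tests. Depth ran from 9535971 to 35319918 counts, and the rarest member value was 16 counts.

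The members and lists were chosen with earlier results of these data known. Named genes are the 7 members, Wrap53, Cdkn1a, the 3 genes most alike to each of 5 members, and at most 4 genes per list called in both backgrounds, by lowest p; 1 of 27 listed enzymes is an older name of another and was not matched. Alternatives were DESeq2 1.42.0, limma 3.58.1 voom with quality weights, library totals without ribosomal RNA genes, upper-quartile scaling, no filter, only the libraries compared, a replicate block, a term for sex and leaving out each library. Positions and symbols came from GENCODE's annotation of GRCm38, and sequences from RefSeq's GRCm38.p6.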

Additional observations from a re-analysis of the deposited data

Results flagged for a closer look

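The first Pole4+/+ Trp53-/- library carried Xist like a female library and also 9.08 CPM of 4 Y-linked genes, which play no part in the comparisons. The next highest female library held 0.337 CPM of them, and the male libraries held from 134 to 208 CPM. In the same library Trp53inp1 stood at 16.3 CPM, against 3.45 and 1.29 CPM in the others of its genotype, while Trp53 (11.5 CPM), Mdm2 (36.3 CPM) and Ccng1 (77.4 CPM) were not the highest of the 3.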

How the results depend on the processing

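The falls of Trp53, Mdm2 and Ccng1 in Trp53-/- against Trp53+/+ cells kept their direction and call in both backgrounds under all 8 alternative fits and in each fit without 1 library. The number of members called moved by over 1.5 times as follows; main values are in the report, and the cause was not tested. For Trp53+/- against Trp53+/+ in Pole4-/- cells it was 2 with DESeq2 and with upper-quartile scaling, 4 with only the libraries compared, 3 with voom, and 0 without a filter, with a replicate block and with a sex term, and 0 in every fit without 1 library; in Pole4+/+ cells it was 1 with a sex term and 0 to 2 without 1 library. For Trp53-/- against Trp53+/- in Pole4+/+ cells it was 2 with only the libraries compared. For Pole4-/- against Pole4+/+ it was 1 in Trp53+/+ cells with DESeq2, library totals, no filter and only the libraries compared, 4 with voom, and 1 in Trp53+/- cells with voom; averaged over doses it was 1 with DESeq2 and with voom and 0 to 1 without 1 library. For the interaction with Trp53 loss it was 1 with DESeq2 and with voom and 0 to 3 without 1 library, the 3 arising without the third Pole4+/+ Trp53-/- library, where 20.9% of all genes were called. For the second against the first allele in Pole4+/+ cells it was 1 with only the libraries compared and with a sex term. Signs turned for uncalled values: Ppm1d in Trp53-/- Pole4-/- cells was at -0.021 with upper-quartile scaling and between -0.039 and 0.15 without 1 library, in Pole4+/+ cells between -0.15 and 0.20; Rchy1 in Trp53+/- Pole4+/+ cells was at -0.046 with a sex term; and Trp53inp1 there lay between -0.38 and 0.081.

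Mdm4 in Trp53-/- Pole4-/- cells was called with upper-quartile scaling, only the libraries compared, a replicate block and voom (adjusted p = 0.0362, 0.0233, 0.0368 and 0.0264). These fits called 42.8%, 50.8%, 43.9% and 51.7% of all genes. The place of the heterozygous level was recomputed under settings chosen after seeing the data: Ccng1 in Pole4-/- cells was at 73.0% with upper-quartile scaling and between 72.1% and 79.3% without 1 library, Rchy1 there between 59.9% and 86.9%, and Trp53inp1 in Pole4+/+ cells between 74.7% and 106%. Samples with the same replicate number correlated above 0.1 in 22 of 45 pairs (median 0.098) and samples with different numbers in 16 of 90 (median -0.06). Same-numbered samples thus correlated more often, and the labels do not say what the numbers mark. The main fit held no block for them, and whether they share a batch was not tested. With the number as a block, the members called were 6 and 4 for Trp53 loss in Pole4-/- and Pole4+/+ cells and 0 and 2 for a single lost allele, and the call of Mdm2 in the comparison of allele steps was lost; it changed no other call of a member. Counts over all genes moved too, given here with voom, DESeq2 and only the libraries compared, in this order. For Trp53 loss in Pole4+/+ cells, 723 genes were called, and 2946, 1312 and 90, with 300 to 2718 without 1 library, the highest without the first null one. For a single lost allele in Pole4-/- cells, 805 were called, and 3862, 1735 and 2682, with 177 under a sex term, 1433 with library totals and 17 to 560 without 1 library, the lowest without the second heterozygous one. For a single lost allele in Pole4+/+ cells, 142 were called, and 1117, 403 and 217, with 21 to 102 without 1 library. For Pole4 loss in Trp53+/+ cells, 626 were called, and 5229, 1618 and 3358, with 8 under a sex term, 1545 with library totals and 8 to 640 without 1 library, the lowest without the second Pole4+/+ one. For the interaction with Trp53 loss, 52 were called, and 1234, 1791 and 0, with 548 under the replicate block and 0 to 3278 without 1 library, the highest without the third Pole4+/+ Trp53-/- one. For Trp53-/- against Trp53+/- in Pole4+/+ cells, 91 were called, and 1193, 208 and 18, with 57 to 1511 without 1 library, the highest without the first null one. With 3 libraries a genotype, the SE of the log2 fold change of null against wild-type cells was 0.11 to 0.15 for Mdm2, Mdm4, Rchy1 and Ppm1d and 0.58 to 0.65 for Trp53inp1.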
